A study of Mus musculus with 12 samples.

Results

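The MAP kinase phosphatase genes followed here, in mouse neocortex and in neocortical cultures, were Dusp1, Dusp4, Dusp5, Dusp6, Dusp7 and Dusp8. These 6 dual-specificity phosphatase genes were chosen by name from 19711 genes with at least 1 annotated exon-exon junction in the deposited tables. The symbols of 5 of the 6 are in the tables. Dusp5 has no row under its symbol, and its 3 introns were found by position among rows without a symbol. Together the 6 genes have 69 distinct junctions of 703350 in all. Of these, 23 match annotated introns, and 19 belong to the main transcripts of the 6 genes.

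All samples were poly-A RNA from wild type mice of the NMRI strain, sequenced with a strand-preserving protocol, with 2 libraries in each of 6 groups. Neocortex was taken from mice of postnatal day 10 (P10) and, as the adult stage, day 49 (P49). Primary neocortical cells from embryos at E16.5 were grown for 14 days and left untreated (control) or given DRB at 50 uM for 2 hours. DRB stops RNA polymerase II from elongating new transcripts. In a second experiment, cells of the same embryonic age and kept for the same time received DRB at the same dose and time, alone or with bicuculline at 20 uM for 1 hour. Bicuculline blocks GABA-A receptors, the main inhibitory receptors of the cortex, and so raises the firing of a culture. Both groups of the second experiment carry DRB, so bicuculline was compared over a transcription block, and an untreated group of that experiment is not analysed here. Nothing in the labels ties the 2 libraries of a group to separate animals or dishes. The p-values thus reflect only how these particular libraries vary, and that variation may be technical. Column names mark the P10, DRB and bicuculline columns, and the other groups were assigned from the names left over.

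MAP kinases are switched on when a kinase adds phosphate to a threonine and a tyrosine of their activation loop, and these phosphatases remove both. They bind the kinase through a separate domain, which gives each a preference among ERK, JNK and p38. Dusp1, Dusp4 and Dusp5 encode inducible enzymes of the nucleus, Dusp6 and Dusp7 encode cytoplasmic enzymes that prefer ERK, and Dusp8 encodes an enzyme that acts mainly on JNK and p38. Several of these genes are transcribed in response to the kinases they switch off, and Dusp1 is an immediate early gene in neurons.

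Dusp1, Dusp4 and Dusp5 share a gene structure, in which the second exon holds 146, 146 and 149 bases and the third exon 220 bases in each. The spliced sequence across their second intron is shown because 1 of the 3, that of Dusp4, was the junction whose use changed. Each run holds the last 15 bases of the second exon in lower case and the first 15 bases of the third exon in capitals, from the GENCODE main transcript.
Dusp1 intron 2: cctctctacgatcagGGGGGCCCAGTGGAG
Dusp4 intron 2: ccgctgcacgaccagGGGGGCCCCGTGGAA
Dusp5 intron 2: ccagcctatgaccagGGTGGCCCGGTTGAA
The introns removed lie at chr17:26507205-26507573 (minus strand), chr8:34816593-34817123 (plus) and chr19:53533975-53537456 (plus) of GRCm38, and all 3 interrupt coding sequence. Of the 30 bases, Dusp4 shares 24 with Dusp1 and 21 with Dusp5.

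Depth per library ranged from 49559425 to 73900724 spliced reads in the table of the tissue libraries, the control cultures and the first DRB experiment, here the first table. It ranged from 62423801 to 69852903 in the other, the second table. Levels are in CPM, a gene's share of its library after TMM scaling within each table, so levels from the 2 tables were not tested against each other. All 5 neuronal markers were detected in every library. Their summed level was 3821 to 3905 CPM at P10, 6852 to 6885 at P49, 1375 to 1457 in control, 2679 to 2755 in the first DRB group, 2374 to 2567 in the second and 2328 to 2474 with bicuculline. The summed level of 5 astrocyte markers was 640 to 677 CPM at P10, 556 to 566 at P49 and 1539 to 1551 in control, and that of 4 oligodendrocyte markers was 768 to 893, 2379 to 2433 and 49.0 to 60.6. Of the defining markers, Gja1 was at 0 in P49 and Cldn5, which has no junction in the tables, was at 0 throughout. In bulk samples, fewer cells of a type and less RNA per cell cannot be told apart.

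Dusp1 had the widest range of the nuclear phosphatases. It was measured at 6.56 and 7.23 CPM in P10 and at 33.2 and 32.0 in P49. Control cultures gave 19.1 and 18.6 CPM and the first DRB group 5.70 and 4.39. In the second experiment DRB alone gave 6.33 and 7.96 CPM, and DRB with bicuculline 28.1 and 28.5. The level was thus high in adult tissue, control and bicuculline libraries and low in P10 and both DRB groups, and no 2 groups compared within a table overlapped.

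Within the first table Dusp4 was highest in control cultures, at 7.35 and 9.33 CPM, followed by the first DRB group at 5.32 and 5.52. Tissue was lower, with 2.09 and 1.87 CPM in P10 and 1.70 and 1.54 in P49. In the second experiment the values were 2.93 and 3.02 CPM with DRB and 3.19 and 3.07 with bicuculline added. Dusp4 had 91 to 549 spliced reads per library, which limits its precision.

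Dusp5 had 47 to 284 spliced reads per library, the fewest of the 6 genes in the 4 culture groups. Its level was 2.52 and 1.85 CPM in P10, 4.28 and 3.47 in P49, 1.90 and 1.90 in control and 0.899 and 0.793 in the first DRB group. The second experiment gave 1.10 and 1.17 CPM with DRB and 1.62 and 1.41 with bicuculline. Within the first table P49 libraries were highest and the DRB libraries lowest, while the control values lay inside the P10 range.

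Among the cytoplasmic enzymes, Dusp6 kept to a narrow range in the first table. It was at 10.96 and 9.56 CPM in P10, 14.3 and 13.8 in P49, 14.3 and 15.2 in control and 11.8 and 12.3 in the first DRB group. The second experiment gave 15.3 and 16.7 CPM with DRB and 21.3 and 21.8 with bicuculline. Its DRB values lay above those of the first DRB group, so levels were not ranked over both tables.

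Dusp7, the other cytoplasmic enzyme, had another order. Tissue was high, with 13.8 and 11.5 CPM in P10 and 14.2 and 12.3 in P49, and the 2 ages overlapped. Control cultures were at 5.38 and 5.86 CPM and the first DRB group at 3.68 and 4.81. The second experiment gave 3.36 and 3.63 CPM with DRB and 2.45 and 2.65 with bicuculline.

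Dusp8, the JNK and p38 phosphatase, was at 95.4 and 93.0 CPM in P10, 78.3 and 78.7 in P49, 45.6 and 50.0 in control and 50.7 and 51.5 in the first DRB group. The second experiment gave 41.2 and 41.3 CPM with DRB and 45.0 and 43.9 with bicuculline. Tissue was above every culture group of its table.

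**Figure D1:**
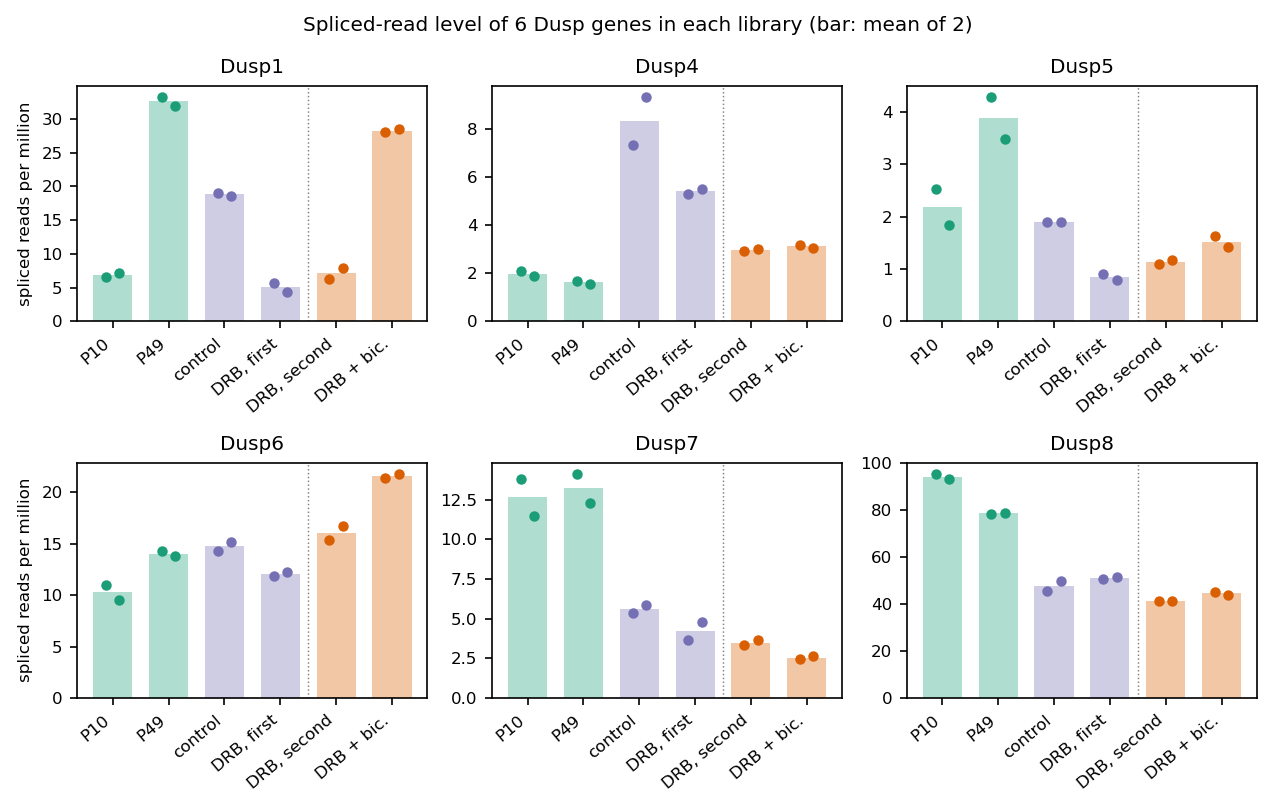
Level of each Dusp gene in CPM (y axis, linear, each panel on its own scale) in the 6 groups (x axis). Points are libraries and bars the mean of 2. The dotted line divides the first table from the second. Dusp1 stands high in P49, control and DRB with bicuculline, whereas Dusp7 and Dusp8 are highest in tissue within the first table.

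Genes with more introns collect more spliced reads, so genes were compared with each other by the median CPM over the introns of the main transcript (6 in Dusp8, 3 in Dusp1, Dusp4 and Dusp5, 2 in Dusp6 and Dusp7). On this scale the order in P10 was Dusp8 (16.6 ± 0.79 CPM per junction, SD, n = 2), Dusp7 (6.25 ± 0.79), Dusp6 (5.11 ± 0.49), Dusp1 (2.01 ± 0.30), Dusp5 (0.789 ± 0.27) and Dusp4 (0.529 ± 0.039). Dusp7 and Dusp6, as well as Dusp5 and Dusp4, lay within about their spread of each other. In P49 Dusp8 still led (13.98 ± 0.099), now followed by Dusp1 (9.95 ± 0.24), with Dusp6 (7.02 ± 0.18) and Dusp7 (6.49 ± 0.62) close together. In control Dusp8 (8.16 ± 0.66) and Dusp6 (7.37 ± 0.31) came first, and Dusp7 (2.77 ± 0.15) and Dusp4 (2.54 ± 0.35) did not differ beyond their spread. In the second experiment Dusp6 had the highest mean with DRB alone too, at 7.65 and 8.36 in its 2 libraries. It overlapped there with Dusp8 (7.81 and 7.28), and Dusp1 was lower (2.04 ± 0.22). With bicuculline Dusp6 led (10.8 ± 0.18), and Dusp1 (8.27 ± 0.48) and Dusp8 (8.02 ± 0.25) lay within their spread. Within the second experiment the highest mean of Dusp6 was thus not particular to bicuculline. In the first DRB group, by contrast, Dusp8 (9.15 ± 0.32) lay above Dusp6 (6.01 ± 0.17). These orders are descriptions with no test.

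The comparison of P49 with P10 asked how the phosphatases differ between adult and developing neocortex. Dusp1, Dusp5 and Dusp6 rose and Dusp8 fell, while Dusp4 and Dusp7 did not pass the test. Of the 6 genes, 4 were called, 3 higher and 1 lower, beside 56.8% of all 15442 genes tested (28% higher and 28.8% lower). Dusp1 rose 4.73-fold, a log2 change of 2.24 ± 0.11 (SE; edgeR's quasi-likelihood test, Benjamini-Hochberg adjusted p = 2.2e-08). Dusp5 rose by a log2 change of 0.83 ± 0.18 (adjusted p = 0.0024) and Dusp6 by 0.45 ± 0.094 (adjusted p = 0.0015). Dusp8 fell by 0.26 on the log2 scale (SE 0.053; adjusted p = 0.0013). The log2 change of Dusp4 was -0.29 ± 0.17 (adjusted p = 0.17), and it turned to 0.15 ± 0.18 (adjusted p = 0.51) when its second intron was left out of the sum, an alternative chosen after the data were seen. That of Dusp7 was 0.065 ± 0.13 (adjusted p = 0.71). The names of both P10 columns hold 1 tissue code, and whether 1 or 2 animals stand behind them is not stated.

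The rest of the pathway was mixed at this step. Of 20 genes of the ERK cascade, from Ras and its regulators to the kinases, 7 rose and 5 fell (median log2 change 0.08, against 0.00 over all genes), among them Rasgrf1, a calcium-responsive Ras activator, from 311 to 933 CPM. Of 4 other MAP kinase phosphatases with a kinase-binding domain, Dusp16, a JNK phosphatase, rose (0.67 ± 0.13) and Dusp2 fell (-1.73 ± 0.32). Of 13 transcripts raised by ERK signalling, 5 rose and 5 fell. The transcription factor subunits Fos and Fosb rose by 2.77 ± 0.088 and 2.63 ± 0.18 on the log2 scale, and Myc fell by 2.47. Markers of other cell types moved in the same comparison. All 5 neuronal and all 4 oligodendrocyte markers rose. Of the tested markers, 3 of 4 astrocyte, 3 of 4 endothelial and mural, 3 of 5 fibroblast, all 3 oligodendrocyte precursor and 1 of 5 microglial and macrophage genes fell, with the fibroblast sum at 574 to 581 CPM in P10 and 176 to 189 in P49. Their part in the changes of the phosphatases was not tested.

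The comparison of control with the first DRB group asked which phosphatase transcripts drop within 2 hours of blocked transcription. Of the 6 genes, 5 fell and none rose, beside 33% of all 15442 genes called lower, 29.7% called higher and 62.7% called in either direction. Dusp1 fell by 1.90 on the log2 scale (SE 0.12; adjusted p = 1.1e-07), which left 0.268 of the control level. Dusp5 fell by 1.17 (SE 0.22; adjusted p = 6.8e-04) and Dusp4 by 0.62 (SE 0.14; adjusted p = 0.0022). Dusp7 fell by 0.40 (SE 0.15; adjusted p = 0.036) and Dusp6 by 0.29 (SE 0.094; adjusted p = 0.017). Dusp8 did not pass, at a log2 change of 0.097 ± 0.055 (adjusted p = 0.14). The nuclear phosphatases Dusp1, Dusp4 and Dusp5 gave the 3 largest decreases of the 6. Dusp4 lay close to Dusp7, with a decrease of 0.51 (SE 0.15) without its second intron. Differences between the genes were not tested. Dusp8 was the 1 gene without a decrease under TMM scaling.

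The calls for Dusp6 and Dusp7 did not hold with each library left out in turn. Their log2 changes stayed negative, at -0.34 to -0.25 for Dusp6 and -0.61 to -0.22 for Dusp7. Dusp6 lost its call without library 1 of the DRB group (adjusted p = 0.098), without library 2 of it (0.053) and without control library 2 (0.11). Dusp7 lost it without control library 1 (0.068), control library 2 (0.17) or DRB library 1 (0.29). Dusp8 turned to -0.092 (adjusted p = 0.17) when libraries were scaled by their totals alone, and passed at 0.17 (adjusted p = 0.030) without control library 2. Scaling by totals moved the median of all genes from -0.03 to -0.22 and the split of calls from 4590 higher and 5092 lower to 2974 and 6823. CPM values are shares of what remains in a library, so these changes are relative to all other transcripts.

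Kinases more often rose. In the ERK cascade 12 of 20 genes rose and 2 fell with DRB (median log2 change 0.37, against -0.03 over all genes), or 10 and 6 when scaled by totals (0.18, against -0.22), with Mapk3, which encodes an ERK kinase, at 382 against 232 CPM and the scaffold Ksr1 lower, at 28.9 against 44.7. Among 18 ERK5, JNK and p38 kinases and scaffolds 10 rose and 4 fell (median 0.42), or 9 and 5 when scaled by totals (0.23). Of the 4 other kinase-binding phosphatases, Dusp16 fell by 1.02 and Dusp10, which acts on JNK and p38, by 1.43, and Dusp2 and Dusp9 did not pass. Of 11 atypical dual-specificity phosphatases, which lack the kinase-binding domain, 2 rose and 1 fell (2 and 3 when scaled by totals). Other phosphatases that act on MAP kinases rose in 5 of 7 cases (4 when scaled by totals), led by Ptpn5, a neuronal tyrosine phosphatase, at 224 against 95.1 CPM.

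Fos and Fosb, immediate early genes like Dusp1, went against it. Fos was at 12.6 CPM in control and 43.8 with DRB, a log2 change of 1.80 ± 0.084, and Fosb at 1.07 and 11.0 (3.35 ± 0.19). Myc fell by 2.30. Of the 13 tested transcripts raised by ERK signalling, 5 rose and 6 fell (median -0.21). In the same comparison all 5 neuronal and 3 of 4 oligodendrocyte markers rose. Markers that fell were 3 of 4 astrocyte, 3 of 4 endothelial and mural, 3 of 5 fibroblast and all 3 oligodendrocyte precursor genes, while 1 endothelial and mural and 1 fibroblast gene rose, with the endothelial and mural sum at 626 to 764 CPM in control and 171 to 173 with DRB. Their part in the phosphatase changes was not tested. TTX, a toxin that silences action potentials, appears in some column names of this table, and the labels do not say which cultures it was given to.

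The comparison of bicuculline with DRB alone, in the second experiment, asked what a rise in activity does to these transcripts while transcription is blocked. Dusp1 and Dusp6 rose and the other 4 genes did not pass, beside 0.182% of all 14268 genes called higher, 0.028% called lower and 0.21% called in either direction (26 genes higher and 4 lower). Dusp1 rose 3.96-fold, a log2 change of 1.99 ± 0.087 (SE; adjusted p = 5.2e-13), the 7th smallest p and the 11th largest increase of all genes tested. Dusp6 rose 1.35-fold, a log2 change of 0.43 ± 0.071 (adjusted p = 0.0029). Both calls held in each alternative tried, including each library left out in turn.

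Of the 4 genes that did not pass, Dusp5 had about the same change as Dusp6, 0.42, with a standard error of 0.21 (adjusted p = 1.0). Dusp7 lay in the other direction, at -0.46 ± 0.15 (adjusted p = 0.74). Dusp8 was at 0.11 ± 0.051 and Dusp4 at 0.07 ± 0.15. The 2 groups did not overlap in any of the 6 genes, which was so for 30.6% of all genes. The 2 cytoplasmic ERK phosphatases therefore had changes of opposite sign, and the difference between them was not tested.

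Across the rest of the pathway few genes passed, as few did over all genes (0.21%). None of 20 ERK cascade genes, 18 ERK5, JNK and p38 genes, 5 Sprouty and Spred inhibitors, 15 kinases and factors downstream, 11 atypical phosphatases or 7 other phosphatases passed the test. The 3 other kinase-binding phosphatases tested, Dusp2, Dusp10 and Dusp16, did not pass either, with changes of -0.06 ± 0.35, -0.14 ± 0.18 and -0.05 ± 0.10. Of 13 transcripts raised by ERK signalling 3 rose: Fosb from 9.74 to 60.7 CPM (2.64 ± 0.068), Fos from 46.6 to 205 (2.14 ± 0.058) and Egr1, a zinc-finger transcription factor, from 9.07 to 16.03 (0.82 ± 0.11). The change of Dusp1 was thus near that of Fos. Among cell type markers 1 of 5 microglial and macrophage genes, Mrc1, fell and no other passed, so the markers of the other 6 classes gave no call in this comparison.

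**Figure D2:**
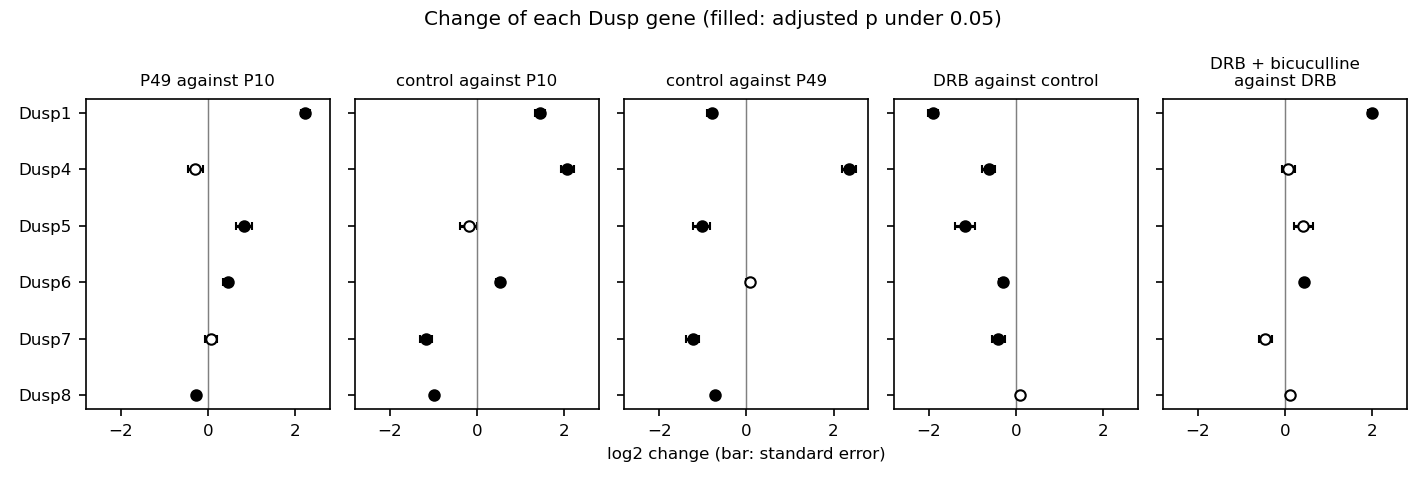
Log2 change of each Dusp gene (x axis) in the 5 comparisons, with bars for the standard error. Filled points passed an adjusted p of 0.05. Comparisons that include the control, P10 or P49 libraries share those libraries. Dusp1 and Dusp6 are the filled points with bicuculline, and Dusp8 is the open point with DRB against control.

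Cultures were set against tissue to ask how far dissociated cells keep the tissue's phosphatase levels. In control against P10, 3 genes rose and 2 fell, where 74% of all genes were called (36.9% higher and 37% lower). Against P49, 1 rose and 4 fell, where 76.3% were called (39.4% higher and 37% lower). Dusp4 was higher in culture than in both tissues, by a log2 change of 2.07 ± 0.15 against P10 (adjusted p = 1.4e-07) and 2.36 ± 0.16 against P49 (adjusted p = 4.8e-08). Without its second intron the second value was 1.84 ± 0.17. Dusp7 was lower than in both, by 1.17 ± 0.14 and 1.24 ± 0.14, and Dusp8 by 0.98 ± 0.054 and 0.72 ± 0.054. Dusp1 lay between the tissues, with a log2 change of 1.45 ± 0.11 against P10 and -0.79 ± 0.10 against P49.

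Dusp6 was higher in culture than in P10 (0.52 ± 0.094; adjusted p = 3.2e-04) and did not pass against P49 (0.07 ± 0.093; 0.23, adjusted p = 0.038, when scaled by totals alone). Dusp5 was below P49 (-1.03 ± 0.19; adjusted p = 4.0e-04) and did not pass against P10 (-0.20 ± 0.20). The ERK cascade had 5 of 20 genes higher and 13 lower against P10 (median -0.33), and 4 higher and 11 lower against P49 (median -0.22). Of 6 tested Sprouty and Spred genes, feedback inhibitors of the same pathway, 4 rose and none fell in each comparison. Neuronal markers were lower in culture in 4 of 5 cases against P10, where Gad1 of inhibitory neurons was higher, and in 5 of 5 against P49. All 4 tested astrocyte markers were higher and all 4 oligodendrocyte markers lower in both comparisons. Fibroblast markers were lower in 5 of 5 cases against P10 and 4 of 5 against P49, and 2 of 3 oligodendrocyte precursor markers were lower in each. Vascular markers diverged, with the mural gene Acta2 higher by 4.94 ± 0.13 and the endothelial gene Pecam1 at -5.26 ± 0.14 on the log2 scale against P10. Neither cell type moved as a whole. The mural gene Pdgfrb was lower against P10 (-0.43 ± 0.067). The endothelial gene Kdr did not pass against P10 (0.09 ± 0.077) and was higher against P49 (2.06 ± 0.083). Of 5 microglial and macrophage markers 3 were lower and 2 higher against P10, among them Csf1r at -3.53 ± 0.091, and 2 lower and 1 higher against P49. The part of these cell types was not tested. Both comparisons use the same control libraries, and scaling by totals moved the median of all genes from 0.01 to 0.11 and from 0.04 to 0.20.

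Within a gene, each junction was tested against the gene's other junctions to ask whether its introns were spliced in constant proportion. Of 20 tested junctions of the 6 genes 1 passed, that of the second intron of Dusp4, in 2 of the 5 comparisons. It passed in P49 against P10, where 1.48% of all 151158 tested junctions did, and in control against P49, where 5.11% did. No junction of the 6 genes passed in DRB against control (1.52% of all junctions did), in control against P10 (5.24%) or, of 18 tested, with bicuculline against DRB (0.00218% of 137428). In P10 the junction had 38 and 36 reads, 26.6% and 26.1% of the reads of Dusp4. In P49 it had 1 and 0 reads, while the first intron had 30 and 35 and the third 82 and 56. The share was 0.885% (95% exact binomial interval 0.0224 to 4.83%) in one P49 library, and 0 of 91 reads in the other, which allows a share of up to 3.297% by a floor of 3 reads (3.97% as the upper end of the exact interval). Intervals cover counting error only, since the reads carry no molecular identifiers.

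Control cultures had 122 and 164 reads at the same junction (31.2% and 29.9% of the gene) and the first DRB group 66 and 88 (22.3% and 26.9%). The log2 change in its use, relative to the rest of the gene, was -5.42 in P49 against P10 (edgeR's junction usage test, adjusted p = 1.2e-06) and 5.63 in control against P49 (adjusted p = 2.5e-08). With so few reads in P49 these sizes are set largely by 1 read and are no measure of a fold. The intron is 531 bases long, and no other listed junction took its reads: the largest unannotated junction of Dusp4 had 7 reads over the 8 libraries of the table. Whether the P49 reads ran through the intron was not tested, since columns on unspliced reads were not used. Dusp4 intron 2 passed neither in control against P10 (log2 change in use 0.21) nor with DRB against control (-0.30).

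In the second experiment the junction was again scarce, with 11 and 9 reads with DRB and 15 and 7 with bicuculline. These were 5.79% (2.93 to 10.1%) and 4.79% (2.21 to 8.89%) of the gene with DRB, and 6.82% (3.87 to 11.0%) and 3.66% (1.49 to 7.41%) with bicuculline. Cultures given the same DRB treatment in the first experiment had shares of 22.3% (17.7 to 27.5%) and 26.9% (22.2 to 32.1%). The counting intervals of the 2 experiments do not overlap, although the groups bear the same treatment in the labels. Experiment and table cannot be told apart here. The corresponding second introns of Dusp1 and Dusp5, whose sequences are given above, did not share this pattern. Intron 2 of Dusp1 took 27.5% to 31.5% of its gene's reads in all 12 libraries and that of Dusp5 between 32.4% and 55.9% in 11 of them (29 of 50 reads in the twelfth), and neither passed in any comparison.

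**Figure D3:**
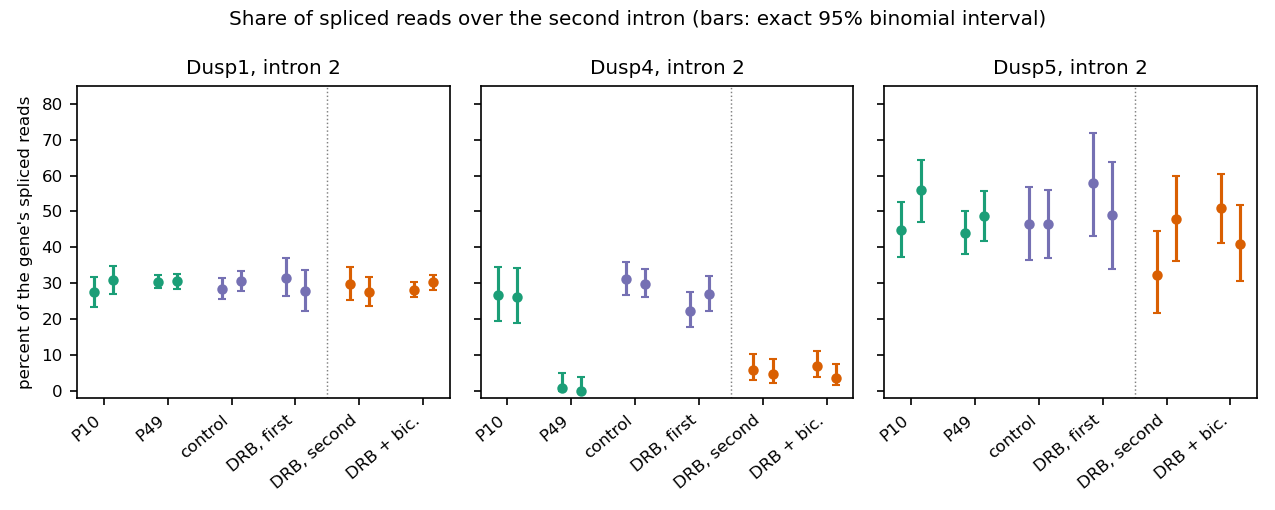
Percent of each gene's spliced reads that cross its second intron (y axis), in each library of the 6 groups (x axis), for Dusp1, Dusp4 and Dusp5. Bars are exact 95% binomial intervals, and the dotted line divides the 2 tables. The Dusp4 panel shows P49 at or near 0 and the second experiment under 7%, with shares above 22% in the other 3 groups.

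A second difference in junctions, in the share of the first intron, separated the 2 tables in Dusp1, Dusp6, Dusp7 and Dusp8, and not in Dusp4 or Dusp5. The first intron of Dusp6 took 40.6% to 45.4% of its gene's reads in the 8 libraries of the first table and 26.6% to 29.1% in the 4 of the second. For Dusp7 the shares were 25.3% to 32.6% and 11.5% to 18.2%, and for Dusp1 10.5% to 16.7% and 6.45% to 8.78%. Dusp8 gave 5.77% to 7.32% and 2.70% to 4.08%. In Dusp5, with 1 to 56 reads at that junction, the ranges 11.8% to 21.4% and 1.37% to 14.8% overlapped, as they did in Dusp4 (19.7% to 38.5% and 15.8% to 30.4%). Over all genes with 3 or more introns and at least 100 reads (10728 to 11358 genes per library), the first intron's median share ranged from 4.07% to 4.96% over the first table's libraries and from 3.48% to 3.59% over the second's. A lower share in the second table was thus also seen over that set of genes. Dusp6 and Dusp7, with 2 introns each, are not part of it. No test was made between tables. Within a table no tested first intron of the 6 genes passed the usage test. That of Dusp5 was not tested in the second table.

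**Figure D4:**
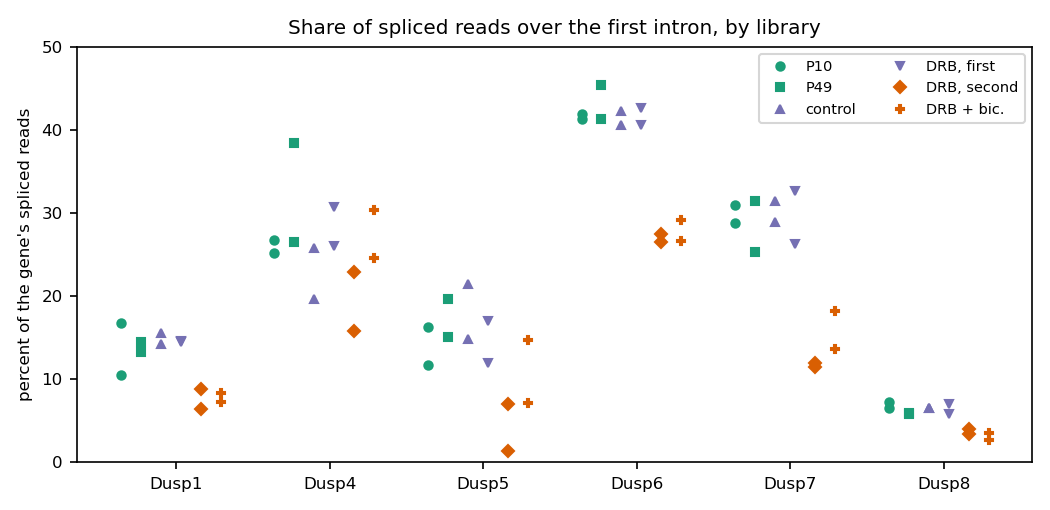
Percent of each gene's spliced reads that cross its first intron (y axis) for the 6 Dusp genes (x axis), with 1 symbol per library and 1 shape per group. Orange symbols, the second experiment, lie below the others in Dusp1, Dusp6, Dusp7 and Dusp8.

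Main transcripts held 97.3% to 100% of the spliced reads of each gene in each table. The largest junction outside them was an unannotated one in Dusp8, chr7:142090267-142094547, which shares the acceptor of its first intron (chr7:142090267-142094922, in the 5′ untranslated part) and had 164 and 53 reads in the 2 tables. An alternative annotated acceptor in Dusp7, chr9:106371136-106373590, had 51 and 6 reads.

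Sequence upstream of the start is shown for Dusp1 and Dusp6, the genes that rose with bicuculline, and for Dusp8, which did not pass. It runs from 250 bases before the RefSeq start (GRCm38.p6), and for Dusp1 ends where an exon of GENCODE begins. Capitals mark the cyclic AMP response element TGACGTCA, which reads the same on both strands.
Dusp1, chr17:26508520-26508722, minus strand: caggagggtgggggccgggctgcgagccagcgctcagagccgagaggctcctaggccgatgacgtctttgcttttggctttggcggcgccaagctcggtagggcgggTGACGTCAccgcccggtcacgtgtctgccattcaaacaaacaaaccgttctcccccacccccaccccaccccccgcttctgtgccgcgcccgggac
Dusp6, chr10:99262981-99263230, plus strand: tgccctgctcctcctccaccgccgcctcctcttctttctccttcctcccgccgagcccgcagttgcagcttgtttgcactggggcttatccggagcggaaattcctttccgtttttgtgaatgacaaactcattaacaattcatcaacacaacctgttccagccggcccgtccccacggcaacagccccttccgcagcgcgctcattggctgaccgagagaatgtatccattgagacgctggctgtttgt
Dusp8, chr7:142095285-142095534, minus strand: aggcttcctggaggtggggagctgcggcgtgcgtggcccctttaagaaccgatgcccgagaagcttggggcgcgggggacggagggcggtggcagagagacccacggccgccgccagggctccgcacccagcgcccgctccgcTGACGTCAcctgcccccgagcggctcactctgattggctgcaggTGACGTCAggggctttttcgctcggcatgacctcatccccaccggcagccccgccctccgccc

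The element occurs 1 time in the window of Dusp1, 143 bases before the start, and 2 times in that of Dusp8, 107 and 63 bases before it. Of 32851 promoter windows of the same 250 bases, 1.55% hold it. Its half-site TGACG, on either strand, occurs 3 times in Dusp1, 4 times in Dusp8 and 1 time in Dusp5, where matches inside a full element are counted too, and 17.8% of all windows hold it. The CArG box, the element bound by serum response factor, occurs 2 times in Dusp5, and 1.47% of windows hold it. The whole Dusp5 window lies within exons annotated by GENCODE, so its CArG boxes and half-site fall in annotated exon sequence. The AP-1 element TGANTCA was found in none of the 5 windows (6.75% of all windows hold it). Dusp6 and Dusp7 held none of these 4 patterns. Dusp4 has no entry among the promoter sequences used. A match describes letters in a window and does not show binding. Whether any of these elements relates to the changes with bicuculline was not tested.

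Over all 12 libraries, the 3 genes whose log2 CPM was most like that of Dusp1 were Gadd45g (Pearson r = 0.90), Itch (0.87) and Dnajb9 (0.86), searched over 8555 genes whose mean log2 CPM reached 3 in each table. Gadd45g had 7.61 CPM in P10, 12.6 and 13.4 in the P49 libraries, and means of 15.9 in control, 4.25 in the first DRB group, 4.60 in the second and 24.7 with bicuculline, so unlike Dusp1 it was not highest in P49. Those most like Dusp6 were Crls1 (0.92), Spopl (0.92) and Sec22b (0.92). For Dusp8 they included Dnajb5 (0.99) and Ephb1 (0.99), and for Dusp7 they were Arhgef2 (0.98), Gne (0.98) and Tsfm (0.98). For Dusp4 they were Ormdl3 (0.99), Slc12a7 (0.99) and Trip6 (0.98), and for Dusp5 Fam179b (0.97), Zbtb11 (0.96) and Hnrnpdl (0.96). The 12 libraries form 6 groups in 2 separately scaled tables, so these values mostly compare group means and carry no test.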

How the data were processed

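Spliced RNA of 12 libraries was analysed. The submitters' processing notes name the aligner STAR 2.4.0f1 and the build mm10 (GRCm38). No source used here says how reads were counted. As deposited, and per the file headers, the values used are raw counts of spliced reads at every junction of a library. Row cells were read by number, since headers have more names than rows have cells. The columns of control, P49 and the second experiment's DRB group were placed by elimination among the names, and libraries 1 and 2 follow column order only. A further 72 columns of per-library values were not used.

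Each distinct junction was counted once and matched to introns of GENCODE (mouse release 21), which held 99.1% to 99.3% of spliced reads. Counts were summed per gene over annotated junctions. Rows without a symbol took the gene of their annotated intron, as for Dusp5. Single-exon genes have no spliced reads. Gene sums were tested with edgeR 4.0.16 (TMM, filterByExpr, quasi-likelihood, two-sided), with the 8 libraries of the first table in 1 fit and the 4 of the second in another, and Benjamini-Hochberg adjustment over all genes at 0.05. Junction use was tested with edgeR's diffSpliceDGE over all junctions. All 6 genes passed the filter on low counts in both tables. Alternatives were DESeq2 1.42.0, scaling by totals, no filter, every junction, only the groups compared, each library left out, limma 3.58.1 diffSplice, a minimum of 10 reads per junction and a block. Both tests were also run on counts simulated with the same spread for every gene, which does not show how they perform on these libraries. Named genes were the 6 members, the 3 genes most like each (1 of those for Dusp8 is not reported here), and list genes by smallest p. The 6 genes and the gene lists were chosen with earlier results of these data known.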

Additional observations from a re-analysis of the deposited data

How the results depend on the processing

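Each of the 5 comparisons was repeated under the alternatives that apply to it (fits of only the groups compared in the first table, the block in the second). For the changes of single Dusp genes, 262 of 275 alternative values kept their direction and their side of the threshold. Of the others, 6 lost the call (all Dusp6 or Dusp7 with DRB against control, each without 1 library), 2 gained one (Dusp8 with DRB against control at 0.17 without control library 2, and Dusp6 in control against P49 at 0.23 scaled by totals) and 5 changed sign. None of those 5 was called: Dusp4 in P49 against P10 (0.15 without its second intron), Dusp7 in P49 against P10 (-0.040 without P49 library 1 and -0.061 without P10 library 2, with 0.20 the highest value without 1 library), Dusp8 with DRB against control (-0.092 scaled by totals) and Dusp5 in control against P10 (0.044 without P10 library 1, and -0.41 the lowest without 1 library). With DRB against control, leaving out 1 library gave 3 to 4 Dusp genes called, the 3 being without DRB library 1. With bicuculline against DRB, 30 genes passed in all, 67 with no filter on low counts and 25 with DESeq2. Leaving out 1 library gave 32 to 82: 75 without bicuculline library 2, 48 without DRB library 1 and 82 without DRB library 2, each arm with 1 library left being assumed to vary like the other. A replicate block on the letters in the column names of the second experiment gave 97 genes (60 higher, 37 lower) and changed no Dusp call. The letters match no number in the labels, and libraries with the same letter deviated together with a correlation of only 0.041 over 14086 genes, so they were not taken as pairs. In the first table no paired analysis was possible because the numbers in its column names do not show which replicate a library is. The use of Dusp4 intron 2 passed with limma (-5.39 in P49 against P10 and 5.69 in control against P49) and without each library (-7.65 to -4.72 and 4.93 to 7.86). A minimum of 10 reads in every library drops that junction, which leaves 0 of 18 member junctions called in both comparisons. Depth limits Dusp5 and Dusp4 most, with as few as 47 and 91 reads per library.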
